A study of Mus musculus with 12 samples.

Results

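The data described here are the 6 brain libraries of male mice that received vehicle in adolescence, out of the 12 libraries of the series. They compare 3 libraries taken after lipopolysaccharide (Veh_LPS) with 3 taken after saline (Veh_Ctrl). The libraries were chosen by their labels alone, and the comparison covers every gene of the count tables: 24562 genes are listed in the vehicle tables, 25556 in all 12 tables joined, and 17208 had enough reads to be tested. All animals were labelled C57BL6, an inbred laboratory strain. Both groups had received 8% Tween-80 in saline each day from postnatal day 30 to 44. At day 70, Veh_LPS animals got lipopolysaccharide (LPS) at 0.33 mg/kg into the peritoneum and Veh_Ctrl animals saline, and the brain was collected 24 h later. The other 6 libraries, THC_Ctrl and THC_LPS, followed the same scheme with delta-9-tetrahydrocannabinol (THC) at 5 mg/kg in place of vehicle. Here they add to the estimate of the spread and serve for 1 comparison at the end. The labels name neither the brain region nor whether each library is 1 mouse, so the spread that p-values measure is that of the libraries, and it may be technical.

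LPS is a component of the outer wall of Gram-negative bacteria. It is bound by LPS-binding protein and CD14 and sensed by Toll-like receptor 4, which acts through NF-kB to induce cytokines and through IRF3 to induce type I interferon. Interferons then act through STAT2 and IRF9, among other factors, on genes that carry an interferon-stimulated response element. After an injection into the periphery, the brain is reached mainly through the endothelium, border macrophages and circulating cytokines, and microglia and astrocytes respond, while the adrenal gland releases glucocorticoids.

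Total counts were 24288219 to 26427887 reads per library in Veh_Ctrl and 25534156 to 44683151 in Veh_LPS, against 16730639 to 25555532 in the THC libraries. Some libraries stood apart. Veh_LPS replicate 2 held pituitary transcripts: the growth hormone gene Gh was at 3638 CPM there and at most 10.6 CPM in the other 11 libraries. CPM is the read count scaled to a common library size with edgeR's trimmed mean method (TMM), not corrected for gene length. Veh_LPS replicate 1 held more mitochondrial reads (7.11% against 4.11 to 5.18% in the other vehicle libraries), and longer genes were lower there (Spearman correlation across genes between gene length and the library's deviation from the median library, -0.42, against -0.30 to 0.20 in the other vehicle libraries; genes are not independent replicates). THC_LPS replicate 3, which is in the fit through the estimate of the spread, held 9.11% mitochondrial reads. Genes with more GC were lower there (Spearman correlation across genes between GC content and the same deviation, -0.813, against -0.137 to 0.313 in the other 11 libraries). Marker genes of neurons, astrocytes and oligodendrocytes were abundant in all 6 vehicle libraries, as for brain: summed over the list, synaptic vesicle genes were at 14800 to 17300 CPM and astrocyte markers at 8190 to 9130 CPM.

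After LPS, 107 of 17208 tested genes (0.622%) were called higher and 0 lower, at an adjusted p under 0.05 (quasi-likelihood test of edgeR, Benjamini-Hochberg adjustment over all tested genes). By this test the calls covered few genes, and most called genes had a low level before LPS. Of the called genes, 88 had a log2 fold change of at least 1, 34 of at least 2 and 17 of at least 3. The median was 1.6, also with the 3 genes that had no control read set at their lower bound, against -0.036 over all tested genes. Before LPS, 34 of the 107 genes were under 1 CPM on average, 52 were at 1 to 10 CPM, 20 at 10 to 100 CPM, and 1, Apod, at 100 CPM or more. The called share was 1.29% of tested genes under 1 CPM and 1.2% at 1 to 10 CPM, but 0.254% at 10 to 100 CPM and 0.0419% above that. Summed over the 107 genes, levels were 871, 910 and 1010 CPM in Veh_Ctrl replicates 1 to 3 and 1850, 2240 and 2160 CPM in Veh_LPS. In none of the 107 did the groups overlap, against 6.96% of all tested genes with every LPS library above every control and 9.07% with every LPS library below. At an unadjusted p under 0.05, edgeR had 797 genes higher and 485 lower. Among the 10284 genes with a mean of 10 CPM or more, 22 had a log2 fold change of 1 or more, 0 had -1 or less, 32 were called, and the range from the 5th to the 95th percentile was -0.29 to 0.27.

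**Figure D1:**
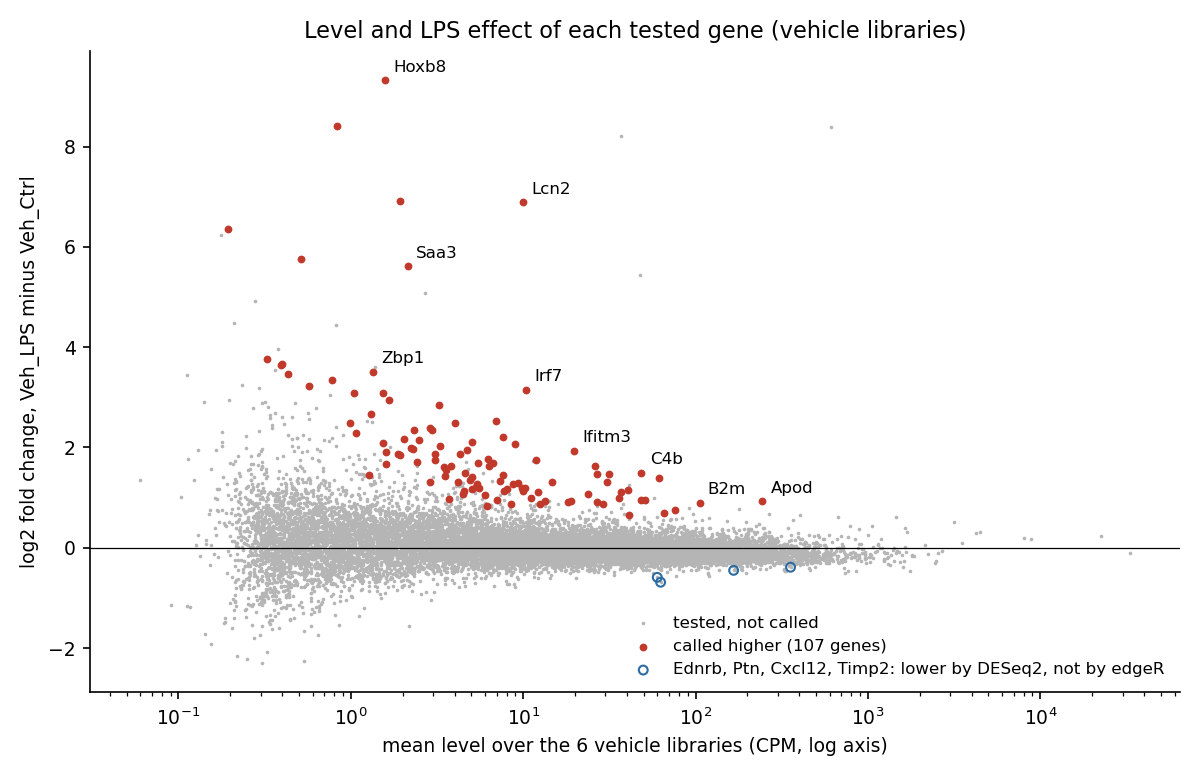
Level and LPS effect of the tested genes: the x axis is the mean over the 6 vehicle libraries in CPM (log axis) and the y axis the log2 fold change, Veh_LPS minus Veh_Ctrl. Grey points are tested genes, filled points the 107 genes called higher by edgeR, all with a log2 fold change of at least 0.66, and open circles 4 genes called lower by DESeq2 (Ednrb, Ptn, Cxcl12 and Timp2).

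The number of calls depended on the tool and on single libraries. With DESeq2, 195 genes were higher (0.97%) and 5 lower (0.0249%). With limma's voom and sample weights, 893 were higher (5.19%) and 960 lower (5.58%). Removal of each library's GC and length trends gave 198 higher (1.15%) and 15 lower (0.0872%) by edgeR. Fewer genes were called higher without Veh_Ctrl replicate 1 (33 genes) or 2 (39), or without Veh_LPS replicate 2 (49) or 3 (43). More were called without THC_LPS replicate 3, with 185 higher and 12 lower. Of the 107 genes, 29 were called in all 22 alternative analyses and 13 in 11 or fewer of them. Among the 29 are Irf7, Lcn2, Rsad2, Siglec1, Lgals3bp, Igfbp7, Ctsc, C4b and B2m.

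Interferon-stimulated genes held the most calls of any list by number: 28 of 61 tested members were called higher (0.622% of all tested genes) and 0 lower, 59 had a positive log2 fold change, and the median was 1.41 against -0.036 over all tested genes. By share, the list of interferon-inducible GTPases stood higher, with 56.2% of members called against 45.9%. The lists and members were chosen with earlier results of these data known, so the counts by list are descriptive. The interferon count was 14 without Veh_Ctrl replicate 1, 16 without replicate 2 and 15 without Veh_LPS replicate 3, and 44 by DESeq2. Lgals3bp, whose product is a secreted glycoprotein that binds galectins, stood at 14.8, 16.9 and 18.3 CPM in Veh_Ctrl and 38.8, 48.5 and 51.6 CPM in Veh_LPS, a log2 fold change of 1.47 ± 0.18 (SE, derived from the F statistic and approximate, n = 3 per group; edgeR adjusted p = 0.00142). All ± values below are such log2 fold changes with their SE. Rnf213, which encodes a giant ubiquitin ligase, was at 14.9, 11.9 and 15.9 CPM before and 27.6, 43.6 and 47.2 CPM after LPS (1.47 ± 0.19; edgeR adjusted p = 0.00175). In both genes every LPS library lay above every control, with Veh_LPS replicate 1 the lowest of its group. Bst2, which encodes tetherin, a protein that holds enveloped viruses at the cell surface, went from 2.35, 2.36 and 3.36 CPM to 9.95, 12.6 and 15 CPM (2.22 ± 0.30; edgeR adjusted p = 0.00203). Isg15, a ubiquitin-like modifier, went from 1.45, 1.45 and 0.955 CPM to 5.04, 4.55 and 6.21 CPM (2.03 ± 0.29; edgeR adjusted p = 0.0027). Phf11b, at 0.196, 0.124 and 0.083 CPM in the controls, reached 1.15, 1.40 and 1.69 CPM (3.35 ± 0.44; edgeR adjusted p = 0.00175). The groups were far apart in these 3 genes as well, though Phf11b rests on few control reads.

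Ifit3 and Ifit1, whose products bind viral RNA, lie within 500 kb of each other on chromosome 19 and were both called, at 1.75 ± 0.25 and 2.35 ± 0.43 on the log2 scale. Rtp4 (1.94 ± 0.27), Slfn2 (1.88 ± 0.29), Lgals9 (1.30 ± 0.20), Sp100 (1.20 ± 0.19), Trim30a (1.69 ± 0.36), Usp18, the protease that removes ISG15 from proteins (1.97 ± 0.35), and Irf9, the DNA-binding subunit of the interferon-activated complex (0.92 ± 0.18), were called too. Irf9, which overlaps Rnf31, was at 11, 12.4 and 14.3 CPM in Veh_Ctrl and 21.8, 21.7 and 27.8 CPM in Veh_LPS, with no overlap between the groups. The antiviral GTPase genes Mx1 and Mx2, both on chromosome 16, had 2.29 ± 0.49 and 1.98 ± 0.33. Mx2 is listed as a polymorphic pseudogene in the files, and it is the 1 called gene of 107 that is not listed as protein coding, against 11% of tested genes. Sensors of foreign nucleic acid were called in 5 of 22 cases (median 0.75), against 0.622% of all tested genes. They were Zbp1, Ifi204, Ddx58, Nlrc5 and Pycard, the adaptor of inflammasomes. Pycard went from 0.785, 1.66 and 0.997 CPM to 3.25, 2.99 and 4.86 CPM (1.70 ± 0.34; edgeR adjusted p = 0.0278). None of the 5 was called without Veh_Ctrl replicate 1, and 2 were without Veh_Ctrl replicate 2 or Veh_LPS replicate 3.

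The letters of the interferon-stimulated response element can be seen in the promoters of single called genes, and 5 are shown for that reason. The sequences are the 250 bases before the RefSeq gene start (mouse build GRCm38.p6, gene strand, 5′ to 3′), with every match to GAAA, any 2 bases, GAAA on either strand in capitals (a match on the other strand reads TTTC, any 2 bases, TTTC). Of all 32851 RefSeq promoter windows of this length, 978 (2.98%) hold a match. RefSeq windows were at hand for 83 of the 107 called genes (77.6%) and for 12812 of 17208 tested genes, under the 80% needed to compare shares between them, so no share over the called genes is given. The 5 were picked after their values were seen, as called genes with 1 window and a match: Rsad2, Bst2, Ifit3 and Isg15 from the interferon list and Cybb, the catalytic subunit of the phagocyte oxidase, from outside it.
Rsad2 (chr12:26456453-26456702, minus strand): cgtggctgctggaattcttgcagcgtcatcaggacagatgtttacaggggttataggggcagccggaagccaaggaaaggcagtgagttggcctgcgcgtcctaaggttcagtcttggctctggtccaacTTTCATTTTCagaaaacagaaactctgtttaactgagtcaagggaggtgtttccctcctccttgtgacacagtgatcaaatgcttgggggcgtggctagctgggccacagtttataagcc
Bst2 (chr8:71537473-71537722, minus strand): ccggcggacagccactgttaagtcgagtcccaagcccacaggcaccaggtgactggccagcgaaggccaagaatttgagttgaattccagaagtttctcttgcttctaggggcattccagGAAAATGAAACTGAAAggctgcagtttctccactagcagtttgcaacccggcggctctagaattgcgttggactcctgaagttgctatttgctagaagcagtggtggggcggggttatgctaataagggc
Ifit3 (chr19:34583279-34583528, plus strand): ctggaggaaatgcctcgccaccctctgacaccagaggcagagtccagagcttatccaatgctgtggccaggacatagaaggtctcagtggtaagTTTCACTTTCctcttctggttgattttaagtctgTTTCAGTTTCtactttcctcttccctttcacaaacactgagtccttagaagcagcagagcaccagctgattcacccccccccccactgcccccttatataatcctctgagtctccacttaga
Isg15 (chr4:156200819-156201068, minus strand): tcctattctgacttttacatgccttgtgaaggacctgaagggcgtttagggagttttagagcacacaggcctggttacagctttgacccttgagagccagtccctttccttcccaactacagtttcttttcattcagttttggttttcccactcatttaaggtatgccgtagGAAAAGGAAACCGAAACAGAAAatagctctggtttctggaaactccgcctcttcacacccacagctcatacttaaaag
Cybb (chrX:9469325-9469574, minus strand): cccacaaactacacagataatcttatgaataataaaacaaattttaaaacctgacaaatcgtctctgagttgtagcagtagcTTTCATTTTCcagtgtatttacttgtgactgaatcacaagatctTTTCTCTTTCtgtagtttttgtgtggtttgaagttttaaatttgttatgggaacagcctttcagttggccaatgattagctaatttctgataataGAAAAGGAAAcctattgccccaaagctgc
Rsad2 holds 1 match, starting 120 bases before the gene start. Bst2 holds 2 that overlap, Ifit3 2 apart from each other, Isg15 3 that overlap within the last 78 bases, and Cybb 3. Matches of overlapping copies are printed as 1 run of capitals. A match is a description of letters and was not tested as a binding site. Rsad2, whose product blocks viral replication, was at 0.903, 0.828 and 1.04 CPM before and 3.81, 4.55 and 6.12 CPM after LPS. Cybb was at 0.628, 0.745 and 0.664 CPM before and 1.78, 1.74 and 2.06 CPM after LPS (1.46 ± 0.31; edgeR adjusted p = 0.0442). It passed in 9 of 22 alternatives.

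Interferon-inducible GTPases, which coat and disrupt the vacuoles of intracellular pathogens, were called higher in 9 of 16 cases (median 1.35 on the log2 scale, 15 of 16 positive), and class I antigen presentation genes in 9 of 21 (median 0.79, 19 of 21 positive). Over all 17208 tested genes, 0.622% were called higher, 7537 were positive and the median was -0.036. At an unadjusted p under 0.05, 797 of them were higher and 485 lower. The GTPase count was 4 without Veh_Ctrl replicate 1 or Veh_LPS replicate 2 and 3 without Veh_Ctrl replicate 2 or Veh_LPS replicate 3. The class I count was 3 without Veh_Ctrl replicate 1, 4 without Veh_Ctrl replicate 2 and 5 without Veh_LPS replicate 3. Gbp7, a guanylate-binding protein gene, was at 1.49, 1.37 and 1.37 CPM in Veh_Ctrl and 3.65, 5.23 and 5.28 CPM in Veh_LPS (1.74 ± 0.23; edgeR adjusted p = 0.00175). Irgm2, a regulator of the other immunity-related GTPases, was at 5.30, 4.80 and 4.90 CPM and 11, 9.74 and 12.8 CPM (1.16 ± 0.18; edgeR adjusted p = 0.0043). Both are called in all 22 alternatives, and both groups were tight relative to their distance. B2m, the light chain shared by class I molecules, was the class I gene with the highest level per length, at a mean of 83.3 FPKM in Veh_Ctrl and 161 FPKM in Veh_LPS in the deposited values. In CPM it was at 74.5, 73.0 and 73.2 before and 142, 136 and 134 after LPS. Psmb8, a subunit of the immunoproteasome, went from 0.667, 0.787 and 1.08 CPM to 3.05, 2.46 and 3.58 CPM (1.85 ± 0.32; edgeR adjusted p = 0.0106), and Tap1, which pumps peptides into the endoplasmic reticulum, from 3.65, 4.51 and 4.40 CPM to 8.96, 10.7 and 11.7 CPM (1.32 ± 0.28; edgeR adjusted p = 0.0396). MHC class II genes, which present peptides to helper T cells, held 0 calls of 8 (median 0.35; 2 at an unadjusted p under 0.05), 0 by DESeq2 and 1 by voom.

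Of the 107 called genes, 43 lie within 500 kb of another called gene, in 18 runs. How many would lie this close among as many genes drawn from all tested genes was not computed. On chromosome 3 the run of Gbp7, Gbp3 and Gbp2 spans 142530338 to 142638008 (mm10, as in the files). Gbp5, which overlaps Gbp7 and Gbp3, was tested and not called. Chromosome 11 holds Irgm1, Tgtp1 and Tgtp2, at 48861968 to 49064206, where all 6 tested genes had a positive log2 fold change, and Igtp with Irgm2. Chromosome 15 holds Ly6a, Ly6c1 and Ly6c2, chromosome 17 holds H2-Q4, H2-Q6 and H2-Q7, and chromosome 4 holds C1qb and C1qc. Some runs also span genes with negative values. In the run with Tap1 and Psmb8 on chromosome 17, 7 of 12 tested genes were positive. In that with Fcer1g and F11r on chromosome 1, 12 of 26 were. By chromosome, the called share was highest on chromosome 17, with 11 of 831 tested genes (1.32%), then 16 with 6 of 526 (1.14%) and 11 with 16 of 1415 (1.13%). Chromosome 18 had 0 of 440. The Gbp, Irgm, Tgtp, H2-Q, Ifit, Ly6, Slfn and Mx genes have close paralogs, and reads shared between copies may have been split or dropped, so values of single members are uncertain. Reads are also uncertain where genes on opposite strands overlap and counting did not use strand, as Irf7 does with Phrf1, Tap1 with Psmb9, Parp9 with Dtx3l, Sult1a1 with Ccdc101 and Cxcl10 with Art3. Gbp3 and Gbp7 overlap Gbp5 on the same strand, as Irgm2 does Igtp, so their reads are uncertain with or without strand.

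Some complement and myeloid genes were called higher as well. Of 21 complement genes 5 were called higher (C4b, C3, C1qb, C1qc and the C5a receptor gene C5ar1; median 0.79), and of 40 genes shared by microglia and other macrophages 11 were (median 0.77, 38 of 40 positive), with 0 lower in either list. The share called higher over all 17208 tested genes was 0.622%, and 7537 of them were positive. The myeloid count was 3 without Veh_Ctrl replicate 1, 2 without replicate 2, 7 without replicate 3 and 4 without Veh_LPS replicate 2 or 3, and 15 by DESeq2. The complement count was 2 without Veh_Ctrl replicate 1 or 2 or Veh_LPS replicate 3, and 3 without Veh_LPS replicate 2. C1qc, a chain of the C1q molecule that starts the classical pathway, was at 23.9, 24.5 and 23.7 CPM before and 47.5, 47.3 and 48.9 CPM after LPS (1.00 ± 0.17; edgeR adjusted p = 0.00848). C3, the central component, was at 0.471, 0.538 and 1.37 CPM before and 2.42, 8.64 and 6.10 CPM after (2.85 ± 0.56; edgeR adjusted p = 0.0275). C1qc thus rose to nearly the same level in each LPS library, whereas the C3 levels of the LPS libraries were far apart, with replicate 1 the lowest. Fcer1g, the signalling chain of Fc receptors, was at 6.08, 6.42 and 6.23 CPM and 15.1, 13.3 and 14.4 CPM. Ly86, a partner of a Toll-like receptor relative on B cells and myeloid cells, went from 4.16, 4.55 and 3.61 CPM to 14.1, 10 and 9.60 CPM (1.45 ± 0.25; edgeR adjusted p = 0.0105). Laptm5, a lysosomal membrane protein of blood-derived cells, had the smallest called change, from 32.9, 30.4 and 31.9 CPM to 58.9, 46.7 and 44.9 CPM (0.66 ± 0.13; edgeR adjusted p = 0.0289). In bulk tissue, more cells of a type and more RNA per cell cannot be told apart.

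Siglec1, a sialic acid receptor of macrophages that interferon induces, was the 1 called gene of 15 border-associated macrophage markers, at 0.314, 0.538 and 0.291 CPM before and 1.98, 3.64 and 3.19 CPM after LPS (2.94 ± 0.35; edgeR adjusted p = 0.00134). It was called in all 22 alternatives. Across all 17208 tested genes, 0.622% were called higher, and 797 were higher and 485 lower at an unadjusted p under 0.05. Of 24 homeostatic microglia genes, Olfml3 was called, at 20.3, 21.7 and 19.7 CPM before and 40.6, 37.0 and 34.8 CPM after LPS. No gene of the list was called without any 1 of the Veh_Ctrl libraries or without Veh_LPS replicate 2. The list had 18 of 24 genes positive and a median of 0.15, with 6 higher and 3 lower at an unadjusted p under 0.05. Fcrls had 0.57 ± 0.15 (edgeR adjusted p = 0.13), Gpr34 -0.77 ± 0.34 (0.635) and P2ry12 -0.50 ± 0.23 (0.656). P2ry12 overlaps Med12l, so its reads are uncertain. Disease-associated microglia genes, a program described in neurodegeneration models, held 0 calls of 20 in edgeR (median 0.011, 4 higher and 1 lower at an unadjusted p under 0.05), 0 by DESeq2, and 2 higher and 1 lower by voom. Leukocyte markers were near the lower limit: of 30 genes 14 were tested and 2 called, Plac8 from 0.0785, 0.0414 and 0.083 CPM to 0.872, 0.72 and 0.803 CPM and Ly6c2 from 0.0393, 0.0414 and 0.083 CPM to 0.634, 0.72 and 0.868 CPM. The leukocyte count was 0 without any 1 of the Veh_Ctrl libraries or without Veh_LPS replicate 3, and 1 without Veh_LPS replicate 2. Summed over its 30 members, tested or not, the leukocyte list was at 12.8 to 13.8 CPM in Veh_Ctrl and 16.8 to 21.2 CPM in Veh_LPS. The part of blood cells in the myeloid changes was not tested. Erythrocyte markers summed to 397, 546 and 422 CPM in Veh_Ctrl and 531, 237 and 225 CPM in Veh_LPS, with 0 of 8 called by edgeR (0 higher and 1 lower at an unadjusted p under 0.05) or DESeq2, so libraries of 1 group differed in these markers.

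**Figure D2:**
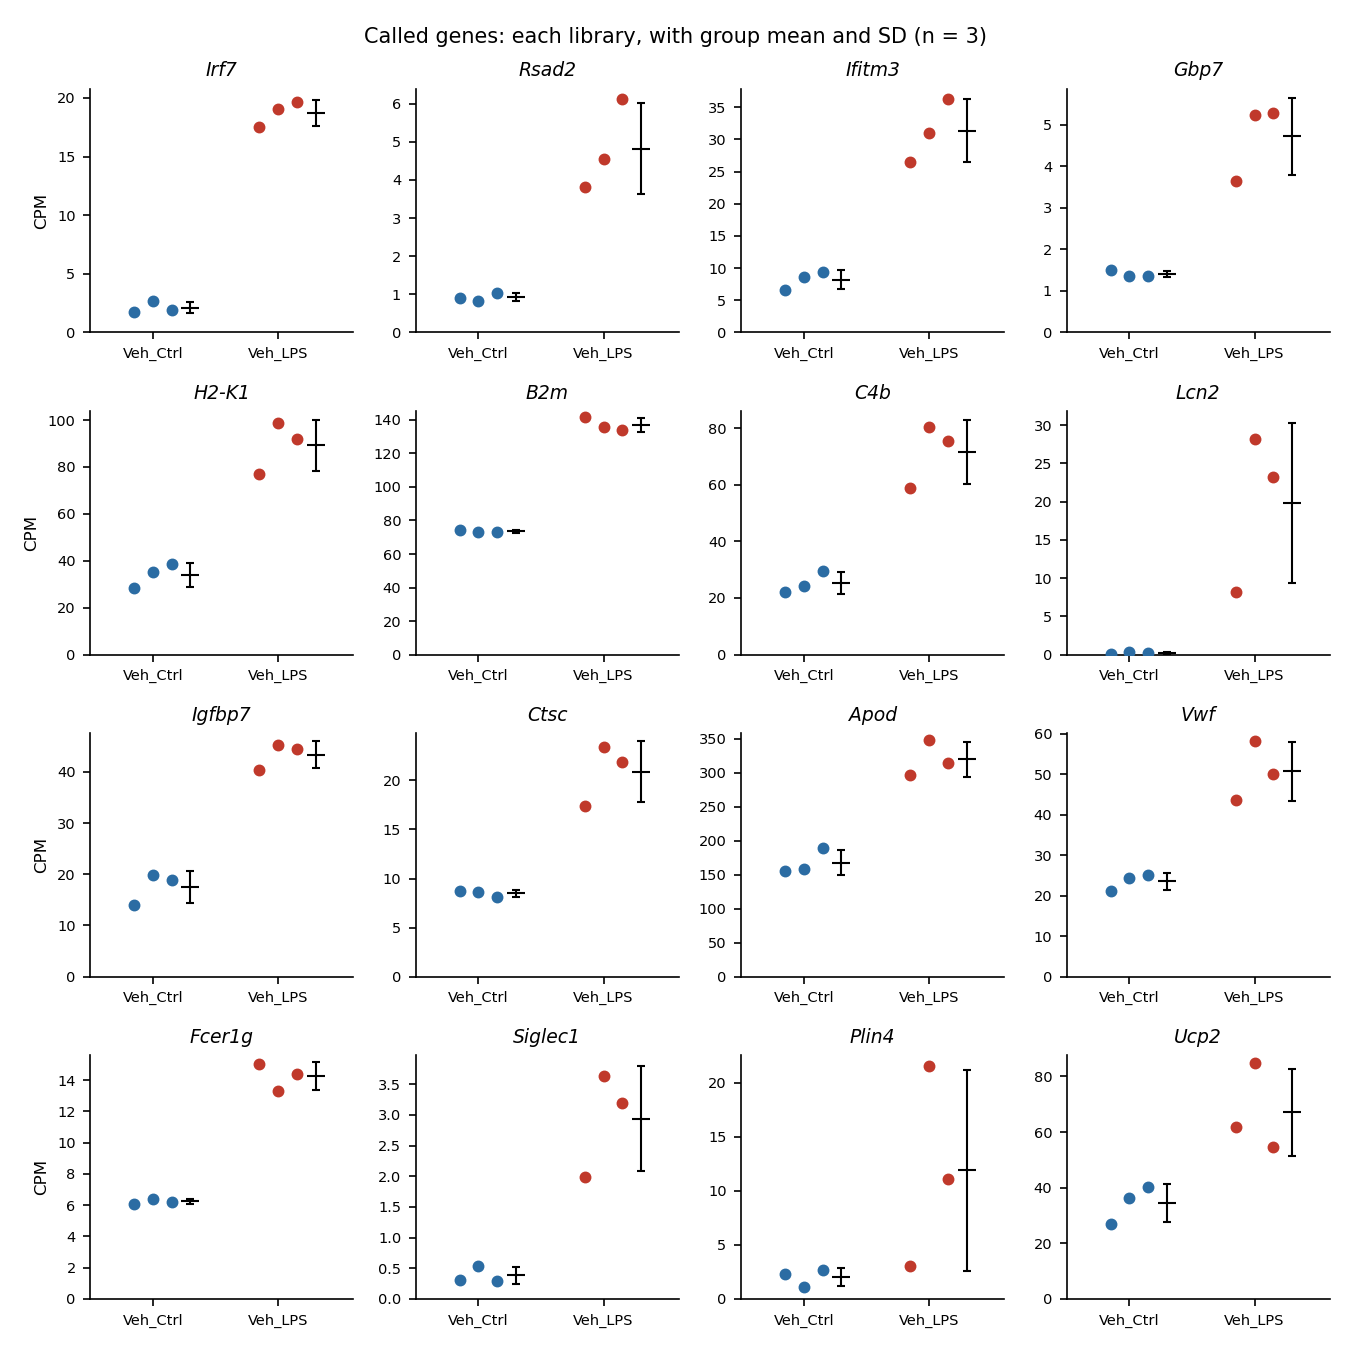
Called genes in each vehicle library: the y axis is the level in CPM, each point is a library, and the bar beside the points is the group mean with its SD (n = 3). In all 16 genes the 3 Veh_LPS points lie above the 3 Veh_Ctrl points, by the smallest margin in Plin4, at 3.01 CPM in Veh_LPS replicate 1 against 2.70 CPM in Veh_Ctrl replicate 3.

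Acute-phase, astrocyte and vascular genes gave a smaller set of calls with some of the largest changes. Among all 17208 tested genes, 0.622% were called higher, and 797 were higher and 485 lower at an unadjusted p under 0.05. Among 20 tested acute-phase and metal-binding genes 2 were called, both secreted: Lcn2, which binds bacterial siderophores, at 0.0393, 0.29 and 0.166 CPM before and 8.13, 28.2 and 23.2 CPM after LPS, and Saa3, a serum amyloid A, at 0.0785, 0 and 0.166 CPM before and 1.71, 6.90 and 4.04 CPM after. Veh_LPS replicate 1 was the lowest of its group by a wide margin in both genes. Mt1, a metallothionein, was at 192, 184 and 211 CPM before and 267, 268 and 284 CPM after (0.48 ± 0.13; edgeR adjusted p = 0.149), and was called by DESeq2 (adjusted p = 0.00845). Of 33 reactive astrocyte genes 5 were called (Lcn2, Cxcl10, Serpina3n, Gbp2 and Psmb8; median 0.58). All but Serpina3n are also in other lists. Serpina3n, a secreted inhibitor of serine proteases, was at 17, 14.2 and 14.9 CPM before and 23.9, 40.2 and 33.1 CPM after. The astrocyte count was 1 without Veh_Ctrl replicate 2 or Veh_LPS replicate 3, 2 without Veh_Ctrl replicate 1, 3 without Veh_Ctrl replicate 3 or Veh_LPS replicate 2, 8 without THC_LPS replicate 1, 13 without THC_LPS replicate 3 and 11 by DESeq2. Markers of astrocytes in general held 0 calls of 20 (median -0.071; 1 higher and 3 lower at an unadjusted p under 0.05), with 0 by DESeq2.

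In the vascular lists, 4 of 32 endothelial activation genes (Lcn2, Vwf, Icam1 and Sele) and 3 of 30 endothelial markers (Vwf, Ly6a and Ly6c1) were called, with medians of 0.46 and 0.14. The values over all tested genes were 0.622% called higher and a median of -0.036. Vwf counts in both lists, and Lcn2 also in the acute-phase, reactive astrocyte and glucocorticoid lists. Bulk tissue does not show which cells changed. Vwf, the carrier of clotting factor VIII stored in endothelial granules, was at 21.1, 24.3 and 25.2 CPM before and 43.6, 58.2 and 50.1 CPM after LPS (1.11 ± 0.17; edgeR adjusted p = 0.0043). Icam1, an adhesion molecule for leukocytes, was at 1.81, 1.78 and 1.99 CPM before and 3.37, 7.16 and 9.83 CPM after (1.88 ± 0.39; edgeR adjusted p = 0.041). In Vwf the 3 LPS libraries lay close together, and in Icam1 they were far apart, with replicate 1 lowest. The activation count was 1 without Veh_Ctrl replicate 1, 2 without Veh_Ctrl replicate 2 or 3 or Veh_LPS replicate 2 or 3, and 7 without Veh_LPS replicate 1 or by DESeq2, and the marker count was 0 without Veh_Ctrl replicate 1. F11r, a tight-junction adhesion molecule, was at 5.77, 6.13 and 6.23 CPM before and 11, 10.04 and 11.9 CPM after LPS (0.86 ± 0.19; edgeR adjusted p = 0.0472), the 1 call of 22 junction genes, made in 13 of 22 alternatives. Fn1, which encodes fibronectin of the matrix and plasma, was at 55.2, 46.0 and 69.1 CPM before and 85.2, 108 and 92.3 CPM after (0.74 ± 0.16; edgeR adjusted p = 0.0472). It passed in 10 of 22 alternatives. Slc2a1, the glucose transporter of the barrier, was at 87.1, 99.5 and 99.2 CPM before and 112, 132 and 122 CPM after, a log2 fold change of 0.35 ± 0.12 that did not pass (edgeR adjusted p = 0.389).

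**Figure D3:**
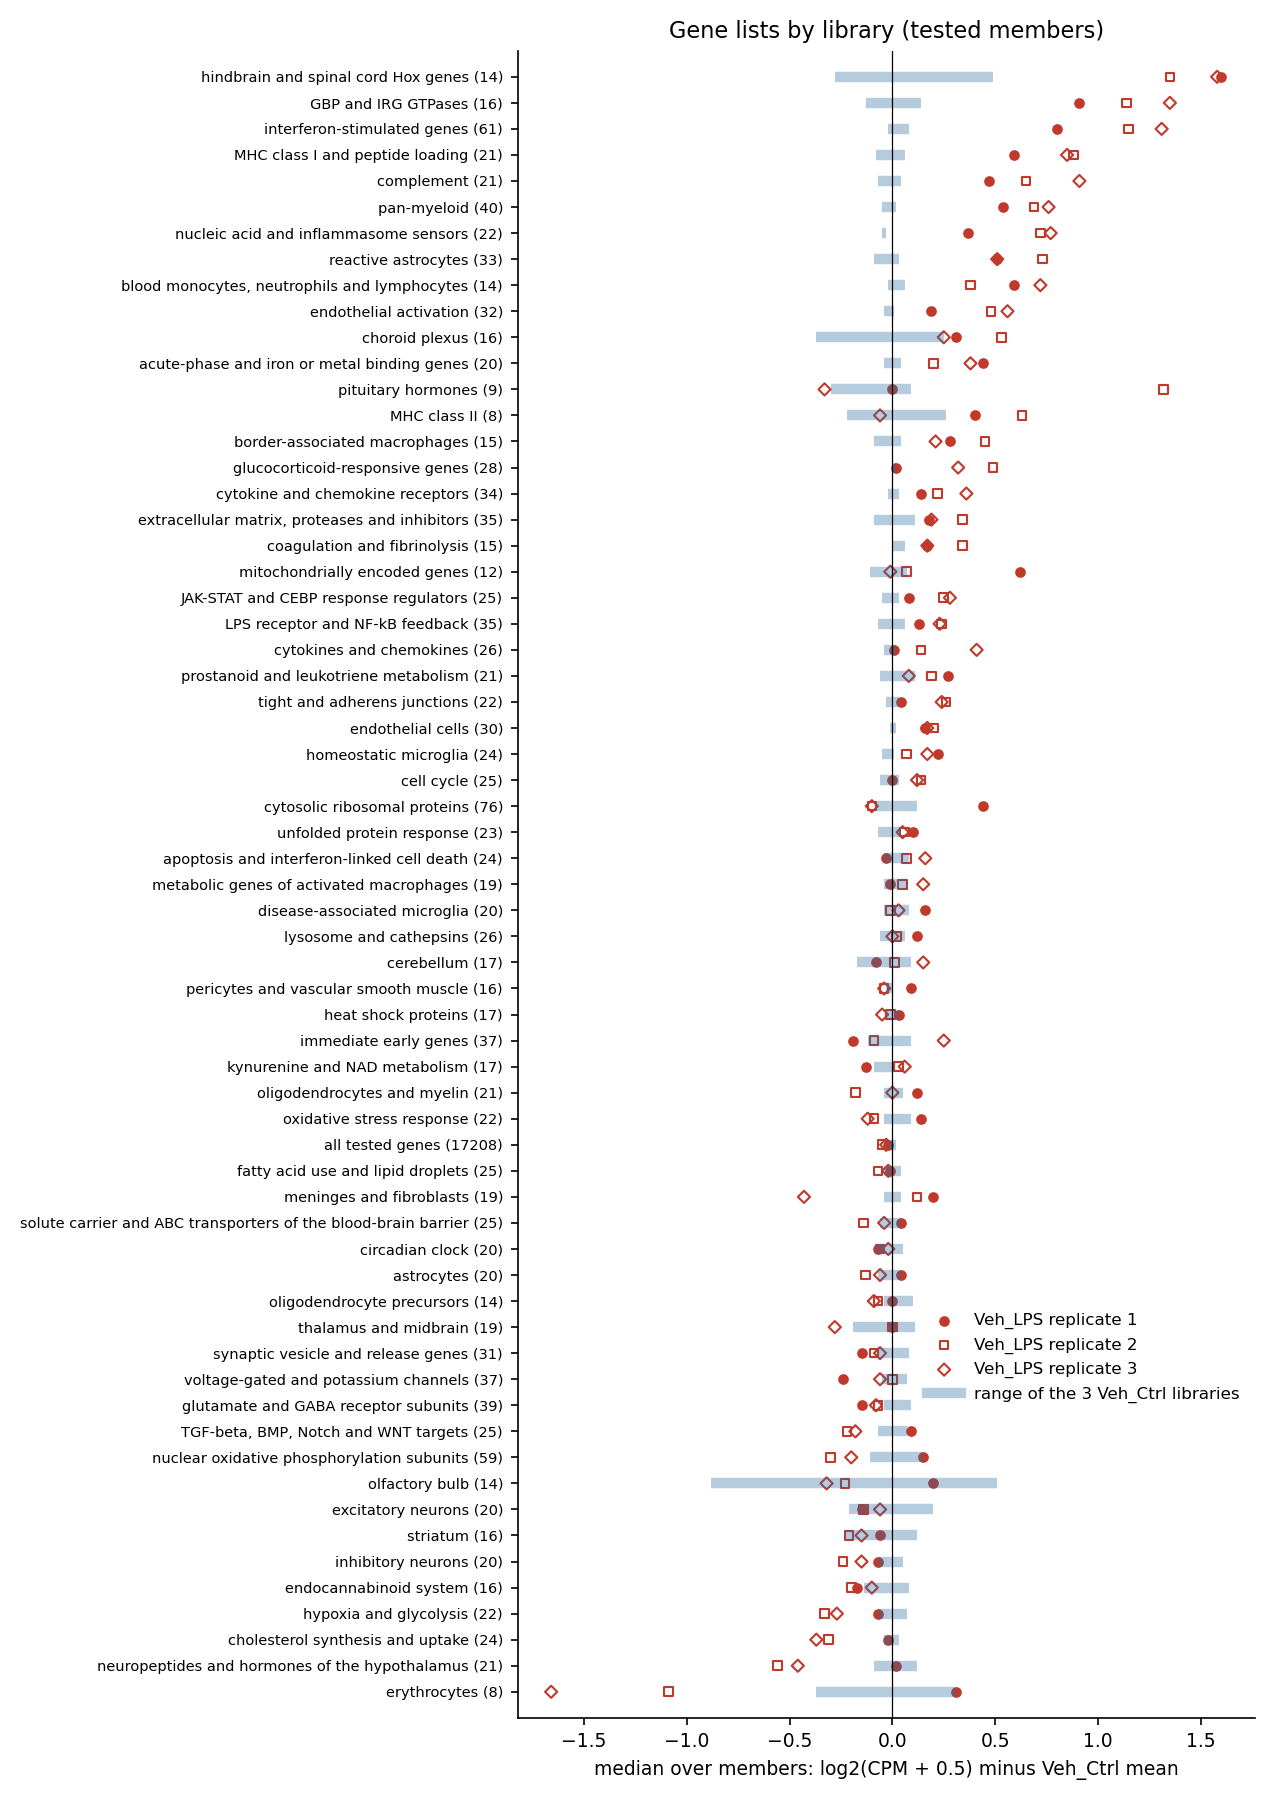
Gene lists by library: for each list (number of tested members in brackets) the x axis is the median over its members of log2(CPM + 0.5) minus the mean of the 3 Veh_Ctrl libraries. Red symbols are the 3 Veh_LPS libraries and blue bars the range of the 3 Veh_Ctrl libraries. Interferon-stimulated genes stand at 0.80, 1.15 and 1.31 in Veh_LPS replicates 1 to 3, all tested genes at -0.05 to -0.02, and erythrocyte markers at 0.31, -1.09 and -1.66.

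Outside every list lay 17 of the 107 called genes. Igfbp7, which encodes a secreted protein of vessels that binds insulin-like growth factors (chromosome 5, 77349240 to 77408045), was at 14, 19.9 and 18.8 CPM before and 40.4, 45.2 and 44.4 CPM after LPS (1.30 ± 0.17; edgeR adjusted p = 0.00197). It was called in all 22 alternatives, and it overlaps Polr2b on the other strand, so its reads are uncertain where the counting did not use strand. Myo1g, a myosin of blood cells, had 2.49 ± 0.40, Ifi30, a lysosomal thiol reductase of antigen processing, 1.49 ± 0.26, Apobec3, a cytidine deaminase that restricts retroviruses and whose gene overlaps Cbx7, 1.64 ± 0.32, and Trim25, the ubiquitin ligase that activates the RNA sensor RIG-I, 0.87 ± 0.17. Msr1, a scavenger receptor of macrophages, was at 0, 0.0414 and 0 CPM before and 0.476, 1.86 and 0.695 CPM after LPS. Emr4, Capg, Sp110, Tgfbi, Pik3ap1, Lcp2, Slc52a3, AI607873 and Itih3 had log2 fold changes of 3.76, 1.08, 1.68, 1.05, 1.31, 1.30, 0.96, 3.23 and 0.68, in that order. Slfn9 had 0 control reads and 41 after LPS, so it was at least 9.5-fold higher (against 3 reads over the control group).

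Of 25 genes of fatty acid use and lipid droplets 2 were called (Plin4 and Ucp2), and of 19 metabolic genes of activated macrophages 2 (Ucp2 and Tgm2), against 0.622% of all tested genes. Both counts were 0 without Veh_Ctrl replicate 1 or 2 or Veh_LPS replicate 2. Apod, which encodes an apolipoprotein of glia that carries small lipids (chromosome 16, 31296192 to 31314808), was at 155, 159 and 189 CPM before and 297, 349 and 315 CPM after LPS (0.93 ± 0.16; edgeR adjusted p = 0.0106). It was the 1 call of 21 oligodendrocyte and myelin genes, whose median was -0.001, and that count was 0 without Veh_Ctrl replicate 1 or 2 or Veh_LPS replicate 2 or 3. Ctsc, a lysosomal protease that activates the proteases of leukocyte granules, was at 8.71, 8.61 and 8.10 CPM before and 17.4, 23.4 and 21.9 CPM after (1.30 ± 0.18; edgeR adjusted p = 0.00236), the 1 call of 26 lysosomal genes. Ucp2, a mitochondrial carrier, was at 27.0, 36.2 and 40.3 CPM before and 61.9, 84.7 and 54.7 CPM after (0.96 ± 0.19; edgeR adjusted p = 0.0297). The protein cross-linking enzyme gene Tgm2, which overlaps Rprd1b, was at 7.89, 7.79 and 7.64 CPM before and 11.3, 19.4 and 19.4 CPM after (1.11 ± 0.19; edgeR adjusted p = 0.00909). Alox5ap, the 5-lipoxygenase activating protein of leukotriene synthesis, was at 4.12, 2.73 and 2.41 CPM before and 7.61, 7.28 and 6.17 CPM after (1.18 ± 0.22; edgeR adjusted p = 0.0201), the 1 call of 21 prostanoid and leukotriene genes. That count was 0 without Veh_Ctrl replicate 2 or 3 or any 1 of the Veh_LPS libraries.

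Lists of LPS receptor and NF-kB feedback genes, cytokines, and cytokine receptors held 0, 1 and 2 calls at 24 h. The LPS receptor and NF-kB feedback list held 0 calls of 35 (28 of 35 positive, median 0.25; 8 higher and 0 lower at an unadjusted p under 0.05), 1 higher by DESeq2 and 6 by voom. Of all 17208 tested genes, 0.622% were called higher by edgeR, and 797 were higher and 485 lower at an unadjusted p under 0.05. Lbp, the LPS-binding protein, was at 4.32, 5.51 and 6.06 CPM before and 9.83, 12.3 and 8.62 CPM after, with 0.95 ± 0.24 (edgeR adjusted p = 0.129; DESeq2 adjusted p = 0.0222). Cytokines and chemokines held 1 call of 26, Cxcl10, a chemokine for T cells, at 0.275, 0.497 and 0.208 CPM before and 1.63, 2.31 and 4.32 CPM after LPS. It was not called without any 1 of the Veh_Ctrl libraries or without Veh_LPS replicate 2 or 3. Of the members below the filter, Cxcl13 had 0, 1 and 2 reads before LPS and 14, 19 and 13 after, Il1rn 0, 1 and 0 against 2, 10 and 7, and Ccl4 0, 0 and 1 against 6, 1 and 20. These genes were chosen after their values were seen, and the other untested members are not given. Csf2rb and Tnfrsf1b, receptors for granulocyte-macrophage growth factor and for tumour necrosis factor, were the 2 calls of 34 receptors, at 2.17 ± 0.35 and 0.82 ± 0.16. Csf2rb was at 0.667, 0.414 and 1.12 CPM before and 2.22, 4.40 and 3.32 CPM after. The receptor count was 0 without Veh_Ctrl replicate 1 or 2, 1 without Veh_Ctrl replicate 3 or any 1 Veh_LPS library, and 5 without THC_LPS replicate 3.

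Glucocorticoid-responsive genes split the LPS libraries. Of 28 tested genes 3 were called higher (Lcn2, Sult1a1 and Plin4), 26 were positive, 14 were higher and 0 lower at an unadjusted p under 0.05, and the median was 0.37, or 0.18 without Veh_LPS replicate 2. By comparison, 0.622% of all 17208 tested genes were called higher, and 797 were higher and 485 lower at an unadjusted p under 0.05. Relative to the control mean, the list's median was 0.02 in Veh_LPS replicate 1, 0.49 in replicate 2 and 0.32 in replicate 3. Zbtb16, a zinc-finger repressor induced by glucocorticoids, was at 30.0, 23.7 and 27.4 CPM in Veh_Ctrl and 22.6, 67.2 and 51.5 CPM in Veh_LPS (0.80 ± 0.29; edgeR adjusted p = 0.507). Fkbp5, a co-chaperone of the glucocorticoid receptor, was at 30.3, 28.4 and 26.8 CPM and 27.7, 59.7 and 38.4 CPM (0.56 ± 0.20; edgeR adjusted p = 0.507). Hif3a was at 4.67, 4.43 and 6.77 CPM and 5.19, 29.1 and 18.1 CPM (1.73 ± 0.44; edgeR adjusted p = 0.126). In all 3 genes replicate 1 of Veh_LPS lay within or below the control range and the other 2 libraries above it. Plin4, a lipid droplet protein that overlaps Hdgfrp2, was at 2.32, 1.12 and 2.70 CPM and 3.01, 21.5 and 11.1 CPM (2.54 ± 0.50; edgeR adjusted p = 0.0289). It passed in 9 of 22 alternatives and not without Veh_LPS replicate 2 (edgeR adjusted p = 0.179) or 3 (0.0856). Sult1a1, a sulfotransferase, was higher in every LPS library, at 4.36, 5.18 and 5.81 CPM and 9.71, 14.4 and 12.8 CPM (1.27 ± 0.20; edgeR adjusted p = 0.00481). The list's count was 1 without Veh_Ctrl replicate 1 and 5 without Veh_LPS replicate 1. The clock genes Per1 and Per2, of which Per1 is also a glucocorticoid target, had 0.14 ± 0.20 and 0.31 ± 0.12, and the circadian list held 0 calls of 20 (1 higher and 0 lower at an unadjusted p under 0.05) and 0 by DESeq2.

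Hox genes, transcription factors that pattern the hindbrain and spinal cord and are nearly absent further forward, had higher summed levels in Veh_LPS than in Veh_Ctrl and varied among the THC libraries with and without LPS. Hoxb8 had 0 control reads and 295 after LPS, at least 77.5-fold higher against 3 control reads, and Hoxb6 0 and 161 reads, at least 41.1-fold. Hoxa5 was at 0, 0 and 0.083 CPM before and 3.85, 3.49 and 4.23 CPM after. These 3 of 14 tested members of the hindbrain list were called (0.622% over all tested genes), and in 11 of 14 every LPS library lay above every control (6.96% over all tested genes). The count was 6 with the 6 vehicle libraries alone, 5 with these less Veh_LPS replicate 2, and 13 by voom. It was 0 without Veh_Ctrl replicate 1 or 2, THC_Ctrl replicate 1 or Veh_LPS replicate 2 or 3, or with no low-count filter, and 1 without Veh_LPS replicate 1 or THC_LPS replicate 2 or with GC and length trends removed. Summed over 24 Hox genes, levels were 0.314, 0.124 and 4.61 CPM in Veh_Ctrl and 29.4, 22.6 and 22.6 CPM in Veh_LPS, but also 12, 20.1 and 2.31 CPM in THC_Ctrl, which had no LPS, and 19.8, 8.38 and 0.538 CPM in THC_LPS. Slc6a5, the glycine transporter of brainstem and spinal neurons, was at 12, 11.2 and 50.1 CPM in Veh_Ctrl and 57.4, 56.8 and 59.3 CPM in Veh_LPS. LPS and the amount of caudal tissue in a library cannot be told apart here for these genes.

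**Figure D4:**
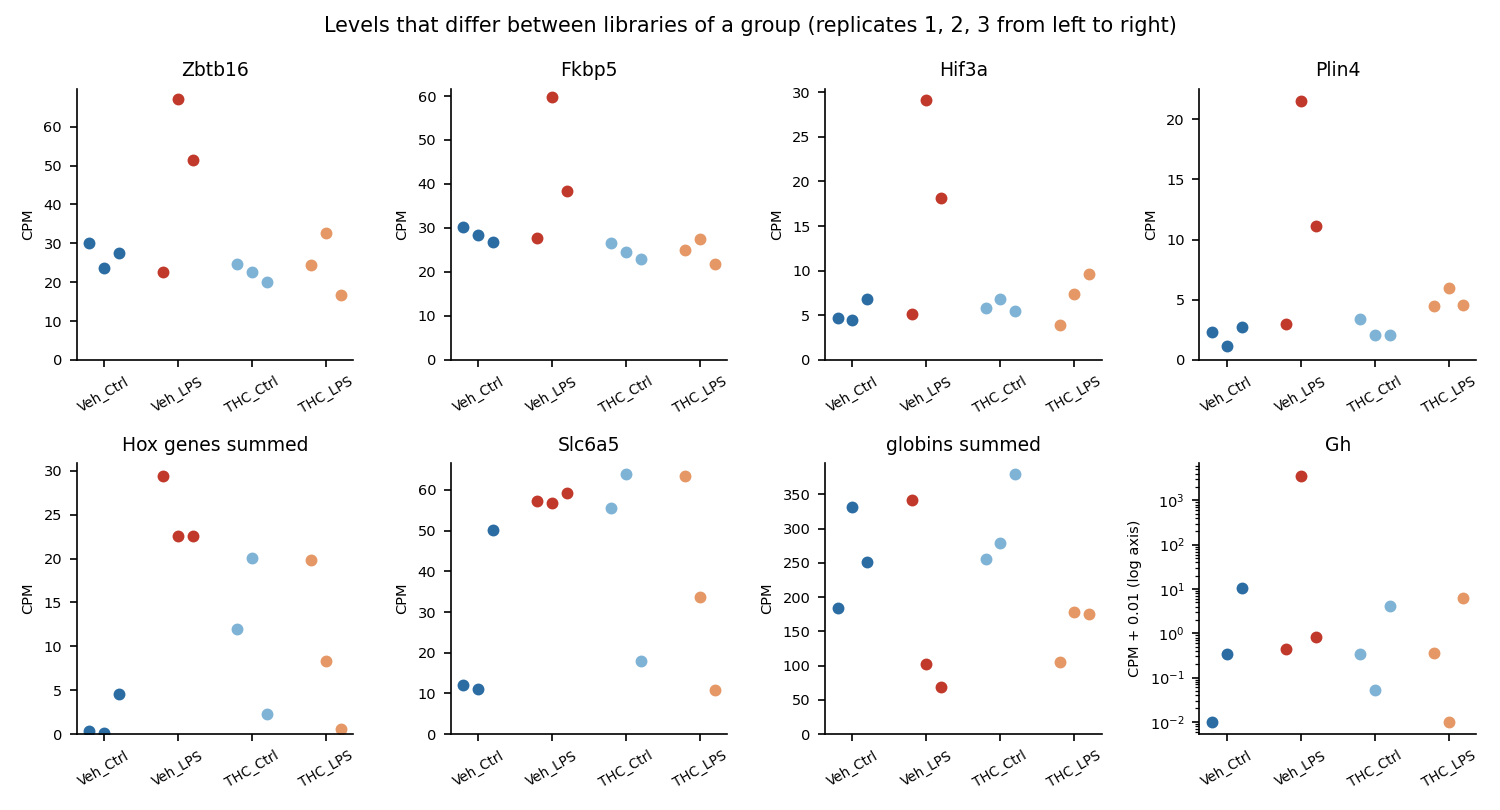
Levels in all 12 libraries, replicates 1 to 3 from left to right in each group, in CPM (for Gh, CPM + 0.01 on a log axis). Zbtb16, Fkbp5, Hif3a and Plin4 are high in Veh_LPS replicates 2 and 3, the summed Hox genes in Veh_LPS and in single THC libraries, globins are lowest in Veh_LPS replicates 2 and 3 at 102 and 69.5 CPM, and Gh is high in Veh_LPS replicate 2.

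Genes with lower levels after LPS were not called by edgeR, and DESeq2 called 5 (0.0249% of genes with an adjusted p), among them Ednrb, Ptn, Cxcl12 and Timp2. Ednrb, an endothelin receptor of astrocytes and endothelium (chromosome 14, 103814625 to 103844173), was at 72.5, 67.9 and 75.8 CPM in Veh_Ctrl and 53.9, 44.5 and 45.1 CPM in Veh_LPS (-0.59 ± 0.14; edgeR adjusted p = 0.0719; DESeq2 adjusted p = 0.00934). It was the 1 gene lower when edgeR was run on the 6 vehicle libraries alone (0.00606%; 152 higher, 0.921%). Ptn, the growth factor pleiotrophin, was at 203, 198 and 176 CPM and 156, 133 and 132 CPM (-0.45 ± 0.11; edgeR adjusted p = 0.129). Cxcl12, a chemokine that retains leukocytes at vessels and in marrow, was at 80.2, 76.9 and 74.8 CPM and 63.6, 38.5 and 42.0 CPM (-0.69 ± 0.18; edgeR adjusted p = 0.139). In each the groups did not overlap, and the difference in CPM was larger than the spread within either group. Timp2, an inhibitor of matrix metalloproteinases, had -0.39 ± 0.11 (edgeR adjusted p = 0.231). Htr2a, a serotonin receptor, was at 17.2, 15.9 and 11.2 CPM and 8.92, 9.63 and 10.4 CPM (-0.61 ± 0.17; edgeR adjusted p = 0.169).

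No cholesterol synthesis gene was called lower by edgeR, though most had negative values. Of 24 genes 22 had a negative log2 fold change (median -0.19, against -0.036 over all tested genes), 10 had every LPS library below every control (9.07% over all tested genes), and 5 were lower at an unadjusted p under 0.05 (485 of 17208 over all tested genes). DESeq2 called 1 lower, and edgeR 2 with GC and length trends removed. Hmgcs1, an early enzyme of the pathway, was at 227, 212 and 195 CPM in Veh_Ctrl and 170, 150 and 163 CPM in Veh_LPS (-0.39 ± 0.14; edgeR adjusted p = 0.507). The list's median relative to the control mean was -0.02, -0.31 and -0.37 in Veh_LPS replicates 1 to 3. Hypoxia and glycolysis genes had a similar order of libraries (-0.07, -0.33 and -0.27), with 20 of 22 genes negative, median -0.22, and 0 calls by edgeR or DESeq2 (1 higher and 3 lower at an unadjusted p under 0.05). Ldha, lactate dehydrogenase A, was at 248, 260 and 202 CPM and 216, 162 and 172 CPM, so the groups overlapped. Apln, the ligand of the apelin receptor, was at 39.0, 39.0 and 41.8 CPM and 37.0, 21.4 and 24.3 CPM (-0.54 ± 0.17; edgeR adjusted p = 0.349). Nuclear oxidative phosphorylation genes were at 0.15, -0.30 and -0.20 in the same libraries, where cytosolic ribosomal protein genes were at 0.44, -0.10 and -0.10, with 0 calls by edgeR or DESeq2 in both lists and 0 at an unadjusted p under 0.05. In these 4 lists Veh_LPS replicate 1, which has the length trend given above, had the highest median of the 3 LPS libraries. In the order given, the lists' median log2 fold changes were -0.189, -0.217, -0.116 and 0.096. With GC and length trends removed they were -0.155, -0.172, -0.067 and 0.136, and the median over all tested genes was 0.004. The part of the trend in the values by library was not tested.

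**Figure D5:**
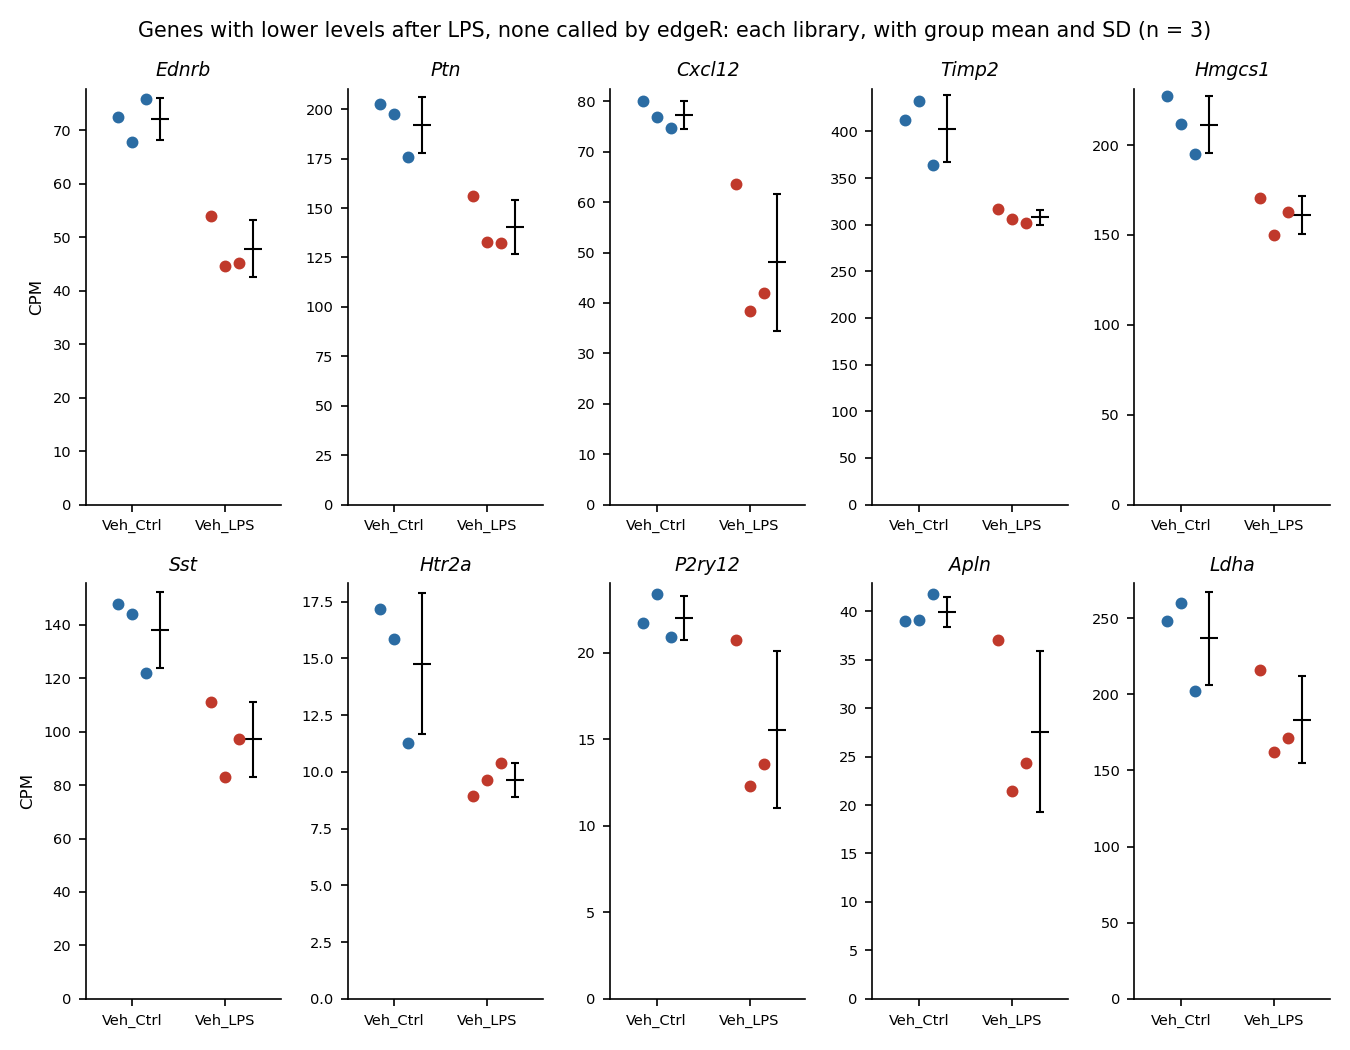
Genes with lower levels after LPS: the y axis is CPM, each point is a library, and the bar beside the points is the group mean with its SD (n = 3). None of the 10 was called by edgeR. In Ednrb, Ptn, Cxcl12 and Timp2 all Veh_LPS points lie below all Veh_Ctrl points, while in Ldha they overlap.

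Neuronal genes gave no call. Excitatory neuron markers (0 of 20 called; median -0.11), inhibitory neuron markers (0 of 20; -0.20), glutamate and GABA receptor subunits (0 of 39; -0.12), ion channels (0 of 37; -0.10) and synaptic vesicle genes (0 of 31; -0.14) all had slightly negative medians, with 0, 4, 0, 3 and 3 members lower at an unadjusted p under 0.05 and 0 called by DESeq2. At that unadjusted threshold, 485 of all 17208 tested genes were lower and 797 higher. Hypothalamic neuropeptides had a median of -0.36 with 0 of 21 called by edgeR or DESeq2 (1 higher and 5 lower at an unadjusted p under 0.05). Relative to the control mean, their median was 0.02, -0.56 and -0.46 in Veh_LPS replicates 1 to 3. With Veh_LPS replicate 2 left out, the list had a median log2 fold change of -0.22. Sst, the inhibitory peptide somatostatin, was at 148, 144 and 122 CPM in Veh_Ctrl and 111, 83.0 and 97.2 CPM in Veh_LPS (-0.51 ± 0.14; edgeR adjusted p = 0.216, or 0.00442 with GC and length trends removed). Hcrt, the arousal peptide orexin, was at 4.83, 5.05 and 6.19 CPM and 3.57, 2.16 and 3.60 CPM (-0.78 ± 0.23; edgeR adjusted p = 0.274). In both the groups did not overlap. Immediate early genes, which report recent neuronal firing, held 0 calls of 37 (median 0.036; 0 higher and 1 lower at an unadjusted p under 0.05), and Fos was at 8.28, 21.4 and 32.2 CPM before and 12.6, 22.9 and 43.8 CPM after LPS, a spread within each group wider than the difference. Heat shock (0 of 17), unfolded protein response (0 of 23) and cell cycle genes (0 of 25) held no call by edgeR or DESeq2, with 0, 2 and 2 higher and 0 lower at an unadjusted p under 0.05. Of all 62 lists, 27 held at least 1 called gene and 35 none.

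Levels of the called genes differed among the 3 Veh_LPS libraries. Of the 107 called genes 79 (73.8%) were lowest in replicate 1, against 38.1% of all tested genes. The median of the 107 genes relative to the control mean was 1.00 in replicate 1, 1.39 in replicate 2 and 1.38 in replicate 3. In interferon-stimulated genes 54 of 61 members were lowest in replicate 1, in the glucocorticoid list 23 of 28, and in homeostatic microglia genes 8 of 24. Without replicate 1, edgeR called 136 genes higher and 10 lower. Replicate 1 is also the vehicle library with the most mitochondrial reads (7.11%) and the length trend of -0.42, whose part in these values was not tested.

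A last comparison asked whether the LPS effect differed after THC in adolescence. No gene passed the test of the difference between the LPS effects in edgeR (0%; smallest adjusted p = 0.71), with 1167 at an unadjusted p under 0.05. DESeq2 called 1 gene, Cyr61 (0.00391%), and voom 6 (0.0349%), A2m, Btg2, Cyr61, Dusp1, Egr1 and Fosb. These 6 hold no gene of the 107. For the 107 genes the median log2 fold change was 0.87 after THC and 1.6 after vehicle, 102 were positive after THC, 97 were smaller there, and 15 were called there by edgeR, where 0.0988% of all tested genes were called higher and 0.0116% lower. DESeq2 called 2.08% higher and 0.655% lower after THC. The genes were selected on the vehicle libraries, so a smaller value in other libraries is built into the choice. At an unadjusted p under 0.05, 40 of the 107 differed, for example Psmb8, at 1.85 ± 0.32 after vehicle and -0.30 after THC, and Apod, at 0.93 ± 0.16 and 0.15. Lcn2 had 6.89 and 6.64, Gbp7 1.74 and 1.71, and Lyz2, lysozyme, 1.19 and 1.23. None of these differences passed the adjustment. The values after THC include THC_LPS replicate 3, which has 9.11% mitochondrial reads and a GC trend of -0.813. The part of that library in them was not tested.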

How the data were processed

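Brain RNA of 12 libraries in 4 groups of 3 was sequenced; per the submitters' processing notes, STAR 2.5, HTSeq and DESeq2 were used with build mm10, and whether counting used strand is not given in the sources used here. Per the file headers, the authors deposited raw read counts per gene and FPKM values (fragments scaled by gene length and library). Counts were joined by gene ID. FPKM served only for levels per length. edgeR 4.0.16 in R 4.3.3 fitted all 12 libraries (TMM scaling, its low-count filter, robust quasi-likelihood test) and gave the contrast Veh_LPS minus Veh_Ctrl, with Benjamini-Hochberg adjustment over all tested genes and a threshold of 0.05. DESeq2 1.42.0, limma 3.58.1 (voom with sample weights), other scaling and filters, the vehicle libraries alone, GC and length correction, a replicate block and leaving out each library were alternatives. Genes with few reads have a larger relative counting error. The gene lists and members were chosen with earlier results of these data known. Named genes followed a rule: the largest changes, the largest rises in CPM, up to 4 called members per list, 12 called genes outside the lists, neighbours within 500 kb, the smallest p among lower genes and DESeq2's lower calls. Some genes that the rule names are not reported here. Other genes named were chosen after their values were seen, among them Mt1, Lbp, Zbtb16, Hif3a, Slc6a5, Slc2a1, Hmgcs1, Ldha, Apln, Sst and Hcrt.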

Additional observations from a re-analysis of the deposited data

How the results depend on the processing

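The number of genes called higher, 107, became 195 by DESeq2, 893 by voom and 198 with GC and length trends removed, and ran from 33 to 185 when 1 library was left out. It was 109 with median-ratio size factors, 152 with no low-count filter or with the 6 vehicle libraries alone, and 105 with at least 1 CPM in 3 libraries. Genes called lower, 0, became 5 by DESeq2, 960 by voom, 1 with the 6 vehicle libraries alone and 15 with GC and length trends removed, and ran from 0 to 12 when 1 library was left out. Without Veh_LPS replicate 2 and THC_LPS replicate 3, an alternative chosen after seeing the data, 100 were higher and 2 lower, and with the vehicle libraries alone without Veh_LPS replicate 2, also chosen then, 88 and 0. Genes whose LPS effect differed after THC, 0, became 1 by DESeq2 and 6 by voom, and ran from 0 to 1 when 1 library was left out. The cause of these differences was not tested. With a replicate block 86 genes were higher, 83 of them among the 107, and 0 lower, and 0 differed after THC. Deviations from the group had correlations of -0.062, -0.223 and -0.013 between vehicle libraries that share a number. Between those with unlike numbers they ran from -0.204 to 0.302. With so few libraries per group, these values cannot decide whether the numbers pair the samples. The log2 fold change of Gh reversed to -2.46 without Veh_LPS replicate 2, to -2.45 without THC_LPS replicate 3 as well, and to -2.44 with the vehicle libraries alone without Veh_LPS replicate 2. Ttr reversed to -0.009 and Fos to -0.015 without Veh_Ctrl replicate 1, and Fos to -0.22 without Veh_LPS replicate 3. Over the analyses that left out 1 library, Gh ran from -2.46 to 12.89, Ttr from -0.009 to 0.47 and Fos from -0.22 to 0.89. None of these 3 genes was called. Slfn9, Plac8 and Ly6c2 rest on few reads, so their values have a large relative counting error.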
